A study of Arabidopsis thaliana with 12 samples.

Results

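Seedlings of *tmt2* that were fed sucrose (*tmt2-L-Suc*, 3 libraries) were compared with unfed wild-type seedlings (WT, 3 libraries), which together are 6 of the 12 libraries of the series. They were chosen by the genotype and the sucrose treatment in their labels. The *tmt2-L-Suc* seedlings carry the TMT2 knockout in the Columbia-0 cultivar and grew with 1% sucrose in 1/2 MS media. The WT seedlings are Columbia-0 on 1/2 MS media without sucrose. Both were labelled 5 days old, and RNA was taken from the shoot. The other 6 libraries, 3 of WT with 1% sucrose at 5 days (WT-Suc) and 3 of *tmt2* without sucrose at 7 days (*tmt2-S*), are given beside some values. The study's methods put the same collections at day 4 and day 6 after germination. The mutant is a single T-DNA insertion line. The 2 groups differ in genotype and in sucrose, so an effect of one cannot be told apart from an effect of the other in this comparison alone. The log2 fold change (log2FC) of *tmt2-L-Suc*/WT is the sum of the log2FC of WT-Suc/WT, which compares fed with unfed WT, and that of *tmt2-L-Suc*/WT-Suc, which compares the genotypes on sucrose. These steps share libraries with the comparison and are given only side by side with it. The study calls such replicates biological, while the labels do not say whether they are separate cultures, and the p-values measure only the spread between these libraries.

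TMT2 belongs to the tonoplast monosaccharide transporters, which load glucose, fructose and also sucrose from the cytosol into the vacuole in exchange for protons. Early seedling growth is fed by oil stored in the seed until photosynthesis takes over. Plant cells read their sugar supply through hexokinase and through the SnRK1 and TOR kinases, and many genes of amino acid breakdown are switched on when sugar runs short. The question addressed here is which genes stay away from the level of the unfed WT in a mutant whose growth sucrose rescues in part.

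*TMT2* (AT4G35300, chr4:16795775-16799823 on the minus strand of TAIR10.1) was measured at 24.8, 10.8 and 16.0 FPKM in *tmt2-L-Suc*, against 9.36, 7.83 and 7.04 FPKM in the WT. All *tmt2-L-Suc* libraries lay above all WT libraries, and the replicate 1 value was the highest of them. The log2FC was 0.94 ± 0.24 (SE; adjusted p = 0.0234, Benjamini-Hochberg over all genes tested, from the quasi-likelihood F-test of edgeR), which is under the fold set for a differentially expressed gene (DEG) here, a |log2FC| of at least 1.2 with an adjusted p of at most 0.05. The insertions lie in the last exon and the transcript before them is still made, so this gene-level value checks nothing about the labels. An exact two-sided permutation test of the FPKM values gave p = 0.1, the smallest that 3 against 3 libraries allow. FPKM is the deposited read level per transcript length and library depth.

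Of the 11 tonoplast sugar transporters tested, 1 was lower in *tmt2-L-Suc* and none was higher. That is 9.09% called, beside 5.27% of all genes tested, and 1 gene says nothing about the group. *SWEET16*, a tonoplast sugar facilitator, was at 4.14, 7.56 and 3.68 FPKM in *tmt2-L-Suc*, against 15.8, 17.9 and 8.63 FPKM in the WT. The groups did not overlap, and *tmt2-L-Suc* replicate 2 was nearest to the WT. Its change was log2FC -1.58 ± 0.34, adjusted p = 0.0112, with steps of -0.68 in WT-Suc/WT and -0.90 in *tmt2-L-Suc*/WT-Suc, and the call was lost without *tmt2-L-Suc* replicate 1 (adjusted p = 0.055) or replicate 3 (adjusted p = 0.0585). *SWEET2*, another tonoplast facilitator, was at 13.4, 16.9 and 13.8 FPKM in *tmt2-L-Suc*, against 24.6, 22.4 and 21.04 FPKM in the WT, also without overlap, but its log2FC of -0.73 ± 0.18 was too small for a DEG (adjusted p = 0.0202). *TMT1*, the closest partner of *TMT2* in sugar loading, was at 4.64, 3.12 and 5.02 FPKM in *tmt2-L-Suc*, against 3.42, 3.39 and 4.70 FPKM in the WT, and these overlapped (log2FC 0.03 ± 0.21). *ERDL6*, a vacuolar glucose exporter, had 24.1, 21.1 and 18.6 FPKM in *tmt2-L-Suc*, against 13.6, 18.9 and 20.9 FPKM in the WT, and its groups overlapped (log2FC 0.15, adjusted p = 0.69). None of the 15 plasma membrane sugar transporters tested and none of the 14 starch degradation genes was a DEG, at median log2FC of 0.05 and -0.14. In lists this small a count of none lies near the share over all genes.

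Across all genes, 976 of 18506 tested were DEGs (5.27%), with 314 higher in *tmt2-L-Suc* (1.70%) and 662 lower (3.58%). Their median log2FC was 1.84 among the higher and -1.97 among the lower DEGs. Every list count given here is to be read beside the shares of 5.27%, 1.70% and 3.58%, and a count near them says nothing about the list. The 3 libraries of one group lay wholly beyond those of the other for 962 DEGs, and for 36.4% of all genes tested. Genes named below by p or by size of change were drawn only from such DEGs, so their separation was fixed by that choice. The total expected count was between 21022762 and 21370053 in *tmt2-L-Suc* and between 20316615 and 20807052 in the WT. Every library of one group had at most 3 counts for 3332 genes in *tmt2-L-Suc* and for 3077 in the WT, and differences below that level were not detectable at this depth. The number of DEGs fell to 625 without *tmt2-L-Suc* replicate 1 and to 527 without replicate 3. It was 655 without WT replicate 3, where 183 genes were higher. With each library left out in turn, 136 of the 314 higher and 291 of the 662 lower DEGs kept their call throughout. Leaf genes marked both groups: the summed level of 23 light-harvesting and Rubisco genes was 246000 to 270000 FPKM in *tmt2-L-Suc* and 275000 to 288000 FPKM in the WT. In whole shoots, fewer cells of a type and less RNA per cell cannot be told apart.

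**Figure D1:**
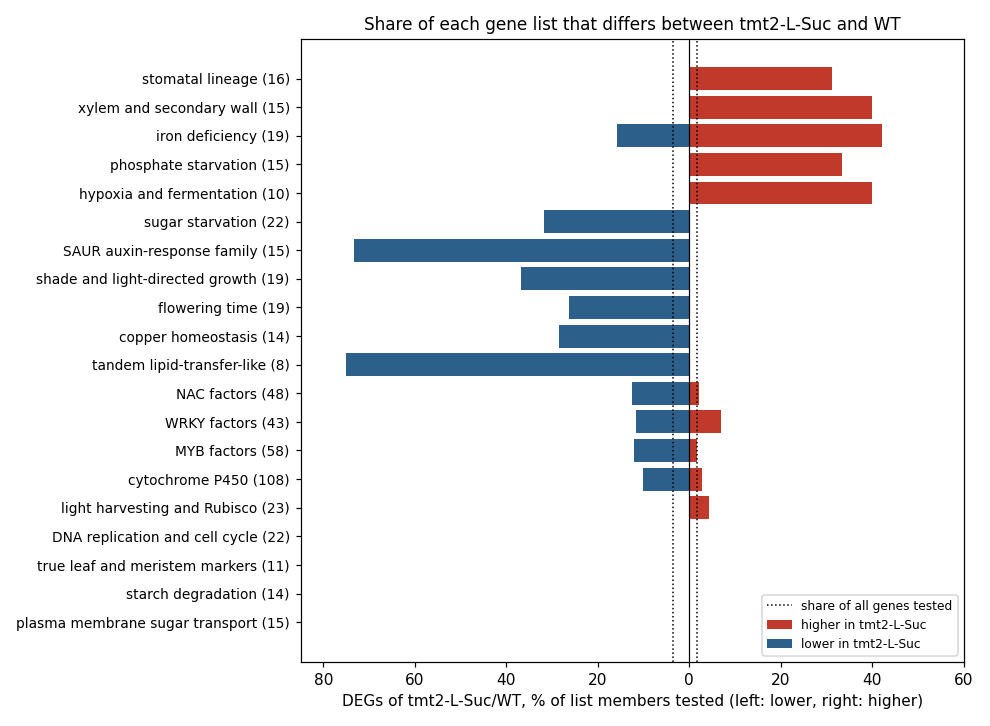
Share of the tested members of 20 gene lists (number tested in brackets) that were DEGs of *tmt2-L-Suc*/WT, in percent, lower to the left and higher to the right. Dotted lines mark the share of all genes tested, 3.58% lower and 1.70% higher; the first 5 lists have their larger share to the right and the next 6 have their largest share to the left.

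One of the largest rises was that of *FTM1* (AT1G43800), which encodes a stearoyl-ACP desaturase, an enzyme that puts a double bond into a fatty acid. It was at 34.6, 8.50 and 27.9 FPKM in *tmt2-L-Suc*, against 0.24, 0.24 and 0.32 FPKM in the WT. Every *tmt2-L-Suc* library was far above the WT, with replicate 2 the lowest of the 3 (log2FC 6.31 ± 0.54, adjusted p = 0.0000916). WT-Suc was in between at 2.6, 1.58 and 1.13 FPKM. *LTP2*, a lipid transfer protein of the epidermis and cuticle, reached 1032, 576 and 1399 FPKM in *tmt2-L-Suc*, against 151, 84.1 and 87.7 FPKM in the WT (log2FC 3.09 ± 0.33, adjusted p = 0.000326). *ELIP1*, an early light-induced protein of the thylakoid that protects against excess light, was at 109.6, 129 and 247 FPKM in *tmt2-L-Suc*, against 8.23, 6.70 and 4.45 FPKM in the WT, with no overlap (log2FC 4.53 ± 0.58, adjusted p = 0.0012). Its steps ran in opposite directions, at -2.15 in WT-Suc/WT and 6.68 in *tmt2-L-Suc*/WT-Suc. AT4G33560, annotated as wound-responsive, had 102, 28.6 and 78.8 FPKM in *tmt2-L-Suc*, against 3.82, 3.54 and 2.80 FPKM in the WT, and replicate 2 was again the lowest mutant library (log2FC 4.23 ± 0.42, adjusted p = 0.000195).

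The higher DEGs with the smallest p included these genes. *ENODL9*, an early nodulin-like protein, was at 27.9, 26.5 and 23.3 FPKM in *tmt2-L-Suc*, against 7.08, 6.61 and 6.23 FPKM in the WT, with little spread in either group (log2FC 1.86 ± 0.16, adjusted p = 0.000107). *sks13*, a multicopper oxidase-like protein, was at 4.07, 2.58 and 4.60 FPKM in *tmt2-L-Suc*, against 0.29, 0.32 and 0.32 FPKM in the WT (log2FC 3.47 ± 0.33, adjusted p = 0.000166). *RXF12*, a family 10 glycosyl hydrolase, was at 2.67, 2.23 and 2.28 FPKM in *tmt2-L-Suc*, against 0.29, 0.28 and 0.43 FPKM in the WT (log2FC 2.71 ± 0.26, adjusted p = 0.000175). In all 3 genes the mutant libraries lay above every WT library, which the rule for naming them required. AT3G27400, a pectin lyase-like protein, rose by a log2FC of 2.21 ± 0.25, and *XTH19*, which cuts and rejoins xyloglucan chains, by 3.10 ± 0.43. Of 22 genes of the *XTH* family tested, 1 was higher and 1 lower, *XTH30* (log2FC -1.75 ± 0.32, adjusted p = 0.00542). Of 41 arabinogalactan and fasciclin-like genes, 2 were higher and 2 lower. The shares called were 9.09% of the *XTH* genes, 9.76% of the arabinogalactan list and 5.27% of all genes tested. Counts this small say nothing about either family. *C/VIF2*, an inhibitor of the invertases that cleave sucrose, was at 110.3, 118 and 109.7 FPKM in *tmt2-L-Suc*, against 18.4, 17.37 and 39.9 FPKM in the WT, and WT replicate 3 was the nearest to the mutant (log2FC 2.08 ± 0.31, adjusted p = 0.00186). AT5G61240, a leucine-rich repeat protein, stood at the edge of the fold threshold (log2FC 1.21 ± 0.14, adjusted p = 0.000544), and its log2FC was under it, at 1.17 or 1.18, without *tmt2-L-Suc* replicate 1, *tmt2-L-Suc* replicate 3, WT replicate 1 or WT replicate 3.

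Some genes of the stomatal lineage were higher in the fed mutant. Stomata form by asymmetric divisions of young epidermal cells, begun by the transcription factor SPCH and ended by MUTE, and secreted peptides of the EPF family limit their number. Of 16 lineage genes tested, 5 were higher and none lower, with a median log2FC of 0.72 against -0.006 over all genes. This list, like those for xylem, iron, copper, shade, flowering, the Casparian strip and the lipid-transfer-like cluster below, was drawn up after these values were seen, so its count describes the genes and supports nothing further. *SPCH* was at 7.33, 6.68 and 7.10 FPKM in *tmt2-L-Suc*, against 2.64, 2.31 and 3.13 FPKM in the WT (log2FC 1.28 ± 0.19, adjusted p = 0.00186). *MUTE* was at 3.40, 3.08 and 3.29 FPKM in *tmt2-L-Suc*, against 0.73, 0.65 and 0.44 FPKM in the WT (log2FC 2.29 ± 0.35, adjusted p = 0.00222). *EPF1*, one of the limiting peptides, had 6.79, 5.05 and 6.93 FPKM in *tmt2-L-Suc*, against 1.74, 1.47 and 1.49 FPKM in the WT (log2FC 1.88 ± 0.30, adjusted p = 0.00277). For these genes each *tmt2-L-Suc* library exceeded each WT library, and the gap was wider than the range of either group. *SDD1*, a protease that lowers stomatal density, was at 4.35, 4.12 and 3.83 FPKM in *tmt2-L-Suc*, against 0.63, 0.63 and 1.19 FPKM in the WT (log2FC 2.23 ± 0.31, adjusted p = 0.0015), and *EPF2*, which limits entry into the lineage, was at 11.3, 8.52 and 18.1 FPKM in *tmt2-L-Suc*, against 4.62, 4.19 and 5.14 FPKM in the WT (log2FC 1.34 ± 0.25, adjusted p = 0.00604). *TMM*, a receptor of the peptides, was at 11.46, 11.6 and 10.8 FPKM in *tmt2-L-Suc*, against 5.88, 5.90 and 7.89 FPKM in the WT, without overlap but with a log2FC of only 0.69 ± 0.15 (adjusted p = 0.0134). The WT-Suc/WT step was -0.06 for *SPCH* and 0.62 for *MUTE*, while *tmt2-L-Suc*/WT-Suc gave 1.33 and 1.67. *SPCH* fell under the fold threshold without WT replicate 2 (log2FC 1.19), as did *EPF2* without *tmt2-L-Suc* replicate 3 (log2FC 1.01).

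Some xylem genes were also higher. Water-conducting vessels lay down a lignified secondary wall and then empty themselves by proteolysis. Of 15 genes tested, 6 were higher and none lower, with a median log2FC of 0.79. *TED6* and *TED7* encode membrane proteins of differentiating vessel elements. *TED6* was at 5.84, 5.69 and 4.84 FPKM in *tmt2-L-Suc*, against 0.58, 0.19 and 0.48 FPKM in the WT (log2FC 3.58 ± 0.45, adjusted p = 0.0011), and *TED7* was at 6.35, 6.20 and 6.26 FPKM in *tmt2-L-Suc*, against 0.91, 0.30 and 0.53 FPKM in the WT (log2FC 3.32 ± 0.55, adjusted p = 0.00333). The mutant libraries of both were tightly grouped, and the WT libraries were all below 1 FPKM. *XCP2*, a papain-like protease of the vessels, was at 21.1, 18.8 and 19.9 FPKM in *tmt2-L-Suc*, against 6.70, 6.01 and 6.94 FPKM in the WT (log2FC 1.5 ± 0.30, adjusted p = 0.0076), and its relative *XCP1* was at 9.50, 8.96 and 9.39 FPKM in *tmt2-L-Suc*, against 3.91, 2.2 and 2.02 FPKM in the WT (log2FC 1.66 ± 0.36, adjusted p = 0.0118). The *XCP1* locus, AT4G35350, lies within 1 Mb of *TMT2*. The laccases *LAC10* and *LAC11* stood at 1.60 ± 0.42 and 1.80 ± 0.47 on the log2 scale. Without WT replicate 2 the count fell to 3 genes, and it was also 3 without WT replicate 3. *XCP1*, *LAC10* and *LAC11* lost their call in both, and the lowest of their adjusted p there was 0.0503. *LAC10* lost its call with any of the 6 libraries left out, and *LAC11* with any of them except WT replicate 1.

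Iron-deficiency genes changed in both directions. Shoots and roots that lack iron induce the transcription factors bHLH38, bHLH39 and BHLH100, and iron-rich leaves store the metal in the ferritin FER1. Of 19 genes tested, 8 were higher, 3 lower and 8 not called, with a median log2FC of 0.72. *bHLH38* was at 11.4, 25.2 and 16.4 FPKM in *tmt2-L-Suc*, against 1.87, 0.42 and 0.43 FPKM in the WT (log2FC 4.18 ± 0.62, adjusted p = 0.00189), and *bHLH39* was at 11.6, 20.8 and 12.8 FPKM in *tmt2-L-Suc*, against 2.07, 0.52 and 0.99 FPKM in the WT (log2FC 3.56 ± 0.60, adjusted p = 0.0037). WT replicate 1 was the highest WT library for both and still lay far below the mutant, and without it the log2FC was 5.31 for *bHLH38* and 4.26 for *bHLH39*. *BHLH100* was at 12.4, 29.2 and 14.6 FPKM in *tmt2-L-Suc*, against 4.02, 0.77 and 2.50 FPKM in the WT (log2FC 2.84 ± 0.64, adjusted p = 0.0144). Among members of the list given here by locus only, AT1G47400 had 18.1, 16.8 and 18.22 FPKM in *tmt2-L-Suc*, against 3.03, 1.62 and 1.65 FPKM in the WT (log2FC 2.97 ± 0.40, adjusted p = 0.00134). AT1G47395 had 29.2, 32.3 and 29.8 FPKM in *tmt2-L-Suc*, against 9.60, 3.72 and 3.16 FPKM in the WT (log2FC 2.36 ± 0.47, adjusted p = 0.00786). These neighbouring loci also showed no overlap between groups, with WT replicate 1 again the highest of the WT. Without that library the log2FC was 3.06 for AT1G47395, 3.44 for *BHLH100*, 2.90 for AT2G14247 and 2.56 for AT2G30766. *ORG1* rose by 1.51 ± 0.24, AT2G14247 by 2.15 ± 0.55 and AT2G30766 by 1.93 ± 0.54. *FER1* was at 53.7, 52.5 and 45.2 FPKM in *tmt2-L-Suc*, against 57.3, 112 and 182 FPKM in the WT, where WT replicate 1 was just above the highest mutant library (log2FC -1.29 ± 0.35, adjusted p = 0.0305). Its steps were 1.16 in WT-Suc/WT and -2.45 in *tmt2-L-Suc*/WT-Suc.

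The other lower iron genes are known mainly from roots. *FRU*, the partner of the bHLH factors in iron uptake, was at 0.18, 0.24 and 0.21 FPKM in *tmt2-L-Suc*, against 0.66, 0.84 and 1.02 FPKM in the WT (log2FC -2.36 ± 0.59, adjusted p = 0.0226). *IRT1*, the iron transporter of the root epidermis, had 0 FPKM in all *tmt2-L-Suc* libraries and 0.44, 0.28 and 2.32 FPKM in the WT, so it was at least 7.22-fold lower against a floor of 3 counts per library, and at least 2.83-fold lower without WT replicate 3. *FRO2*, the ferric reductase of the same cells, was at 0.28, 0.34 and 0.34 FPKM in *tmt2-L-Suc*, against 0.08, 0.17 and 0.60 FPKM in the WT, which overlap. None of the 3 lower calls held without *tmt2-L-Suc* replicate 1, replicate 2 or replicate 3, or without WT replicate 2 or replicate 3. The higher calls numbered 5 without WT replicate 2 and 5 without WT replicate 3, where *BHLH100*, AT2G14247 and AT2G30766 were lost. AT2G14247 and AT2G30766 also lost their call without *tmt2-L-Suc* replicate 1, replicate 2 or replicate 3. The steps of *bHLH38* were -0.49 in WT-Suc/WT and 4.67 in *tmt2-L-Suc*/WT-Suc, and those of *bHLH39* were -1.79 in WT-Suc/WT and 5.35 in *tmt2-L-Suc*/WT-Suc.

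Of 15 phosphate-starvation genes tested, 5 were higher and 10 were not called. The factor PHR1 induces them through a palindrome known as P1BS, spelled GNATATNC. The 250 bases before the annotated start were searched on both strands, and P1BS was present in 5.33% of the 18506 genes tested and in 4 of the 15 phosphate genes tested. A match is a description of the letters and not a site of binding. The windows of the 2 higher DEGs with a match are shown because these genes had among the larger changes of the list; capitals mark P1BS, which lies 26 to 19 bases before the start of AT5G03545 and 217 to 210 bases before that of *PS2*. They come from the TAIR10.1 genome, at chr5:894332-894581 on the plus strand and chr1:27466349-27466598 on the minus strand.
AT5G03545: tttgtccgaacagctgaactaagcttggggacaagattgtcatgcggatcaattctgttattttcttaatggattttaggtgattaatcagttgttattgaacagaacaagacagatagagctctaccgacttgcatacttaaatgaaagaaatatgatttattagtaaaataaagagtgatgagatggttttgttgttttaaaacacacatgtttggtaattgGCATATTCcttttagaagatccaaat
PS2: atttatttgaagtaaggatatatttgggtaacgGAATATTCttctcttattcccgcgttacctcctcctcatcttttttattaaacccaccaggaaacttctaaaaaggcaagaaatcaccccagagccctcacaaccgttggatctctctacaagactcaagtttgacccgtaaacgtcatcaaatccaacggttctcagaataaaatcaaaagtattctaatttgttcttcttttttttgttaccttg

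The median log2FC of the list was 0.86, and 12 of the 15 values were positive. AT5G03545, annotated as expressed in response to phosphate starvation, was at 28.4, 15.04 and 30.0 FPKM in *tmt2-L-Suc*, against 0.81, 1.76 and 1.26 FPKM in the WT (log2FC 4.13 ± 0.56, adjusted p = 0.0014). WT-Suc lay between at 6.51, 10.6 and 6.43 FPKM. *PS2*, a pyrophosphatase induced by low phosphate, was at 3.21, 3.75 and 5.49 FPKM in *tmt2-L-Suc*, against 0.56, 0.57 and 0.10 FPKM in the WT (log2FC 3.21 ± 0.61, adjusted p = 0.00648). *IPS1*, a non-coding RNA that sequesters the microRNA miR399, had 7.70, 2.96 and 5.63 FPKM in *tmt2-L-Suc* and 0 FPKM in all WT libraries, which is at least 10.4-fold higher against 3 counts per library. The acid phosphatase *PAP17* was at 3.50, 4.80 and 13.6 FPKM in *tmt2-L-Suc*, against 2.28, 0.81 and 0.43 FPKM in the WT (log2FC 2.49 ± 0.71, adjusted p = 0.0404), and the phosphate transporter *PHT1;4* rose by 1.43 ± 0.35. Mutant replicate 3 had the highest *PAP17* value, and the count of higher genes was 3 without it and 3 without WT replicate 2, with *PAP17* and *PHT1;4* lost. The log2FC of *PAP17* was 1.72 without mutant replicate 3 and 3.46 without WT replicate 1. *MGD2*, which makes galactolipids that replace phospholipids and also has P1BS in its window, was at 5.10, 5.89 and 3.99 FPKM in *tmt2-L-Suc*, against 1.95, 2.33 and 2.67 FPKM in the WT, under the fold threshold (log2FC 1.01 ± 0.30, adjusted p = 0.0441). *SPX1*, a phosphate sensor protein, stood at 0.79 ± 0.27 (adjusted p = 0.0834).

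Of 10 genes of hypoxia and fermentation tested, 4 were higher and none lower, with a median log2FC of 1.28. Plant cells short of oxygen stabilize ERF transcription factors that induce these genes. *HB1*, a haemoglobin that removes nitric oxide, was at 34.6, 6.02 and 31.1 FPKM in *tmt2-L-Suc*, against 1.16, 1.29 and 2.06 FPKM in the WT (log2FC 3.85 ± 0.53, adjusted p = 0.00148). Replicate 2 was the lowest mutant library and still above the WT. AT5G39890 and AT5G15120 are annotated as putative thiol dioxygenases. AT5G39890 was at 12.9, 6.70 and 8.89 FPKM in *tmt2-L-Suc*, against 1.57, 1.75 and 2.76 FPKM in the WT (log2FC 2.1 ± 0.29, adjusted p = 0.0015), and AT5G15120 was at 15.2, 5.91 and 8.95 FPKM in *tmt2-L-Suc*, against 1.55, 1.68 and 2.41 FPKM in the WT (log2FC 2.29 ± 0.37, adjusted p = 0.00288). AT4G33070, a pyruvate decarboxylase of ethanol fermentation, was at 1.84, 0.48 and 2.43 FPKM in *tmt2-L-Suc*, against 0.15, 0.03 and 0.33 FPKM in the WT (log2FC 3.09 ± 0.63, adjusted p = 0.00906). *ADH1*, the alcohol dehydrogenase of the next step, was at 2.69, 0.85 and 2.81 FPKM in *tmt2-L-Suc*, against 0.73, 0.67 and 0.86 FPKM in the WT, a difference that did not pass the test (log2FC 1.36 ± 0.48, adjusted p = 0.0858). Replicate 2 was the lowest mutant library for each of these 5 genes. Without it, 7 of the 10 genes were higher. The log2FC of AT4G33070 was 3.95 without WT replicate 3.

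**Figure D2:**
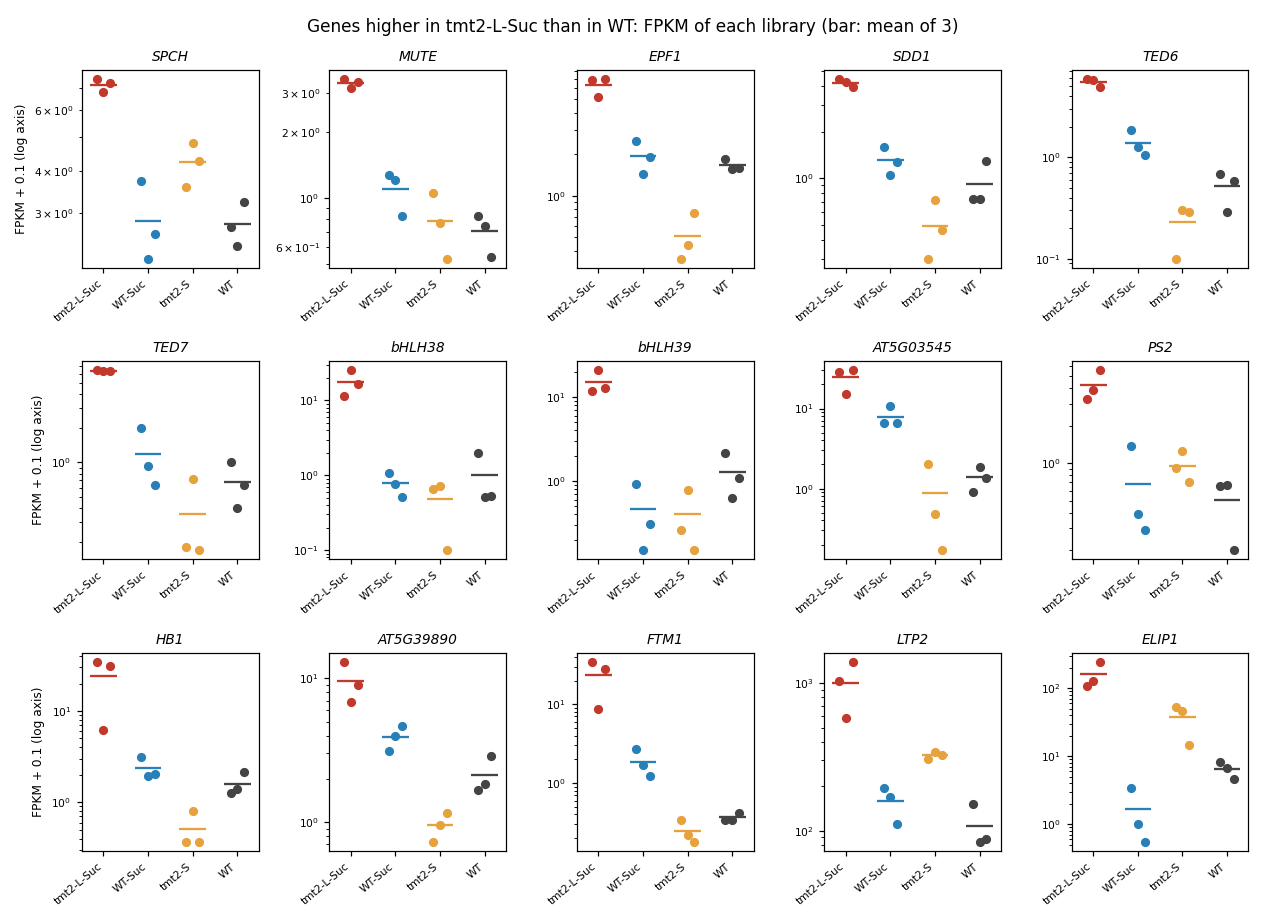
FPKM + 0.1 (log axis) of 15 genes that were higher in *tmt2-L-Suc* than in the WT, 1 panel per gene, for the 3 libraries of each group (points) and their mean (bar), with WT-Suc and *tmt2-S* beside them. The *tmt2-L-Suc* libraries lie above all WT libraries in every panel, and *tmt2-L-Suc* replicate 2 (the middle point) is the lowest for *HB1*, AT5G39890, *FTM1* and *LTP2*.

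Of 43 WRKY transcription factors tested, 3 were higher and 5 lower (3 lower without *tmt2-L-Suc* replicate 3). The share called was 18.6%, beside 5.27% of all genes tested. *WRKY18*, which acts in salicylic acid defence, was at 127, 69.2 and 111 FPKM in *tmt2-L-Suc*, against 21.2, 40.4 and 15.5 FPKM in the WT (log2FC 1.87 ± 0.32, adjusted p = 0.00388), while *tmt2-S* was at 309.8, 393 and 305 FPKM. *WRKY48* rose by 1.54 ± 0.29. Of 37 glutathione S-transferases tested, 3 were higher and 1 lower (10.8% called). The higher ones were the neighbours *GSTF6*, *GSTF5* and *GSTF4* on chromosome 1, and the lower one was *GSTU22* (log2FC -2.92 ± 0.87, adjusted p = 0.0475), whose call was lost with any of the 6 libraries left out. *GSTF5* lost its call without *tmt2-L-Suc* replicate 3, WT replicate 2 or WT replicate 3. *GSTF6* was at 37.8, 27.7 and 65.7 FPKM in *tmt2-L-Suc*, against 11.7, 7.31 and 8.19 FPKM in the WT (log2FC 2.05 ± 0.33, adjusted p = 0.00313), and *GSTF4* was at 2.7, 3.90 and 3.15 FPKM in *tmt2-L-Suc*, against 0.66, 0.58 and 0.88 FPKM in the WT (log2FC 2.07 ± 0.37, adjusted p = 0.00448). Tandem copies of this kind can share reads, so the value of each is uncertain. *ESM1*, which steers glucosinolate breakdown towards isothiocyanates, was at 82.3, 68.0 and 97.2 FPKM in *tmt2-L-Suc*, against 21.6, 23.8 and 19.4 FPKM in the WT (log2FC 1.84 ± 0.33, adjusted p = 0.00494), and the atypical myrosinase *BGLU28* rose by 3.56 ± 0.66. These were the only higher DEGs among 17 jacalin and myrosinase-associated genes and among 23 beta-glucosidases tested, and *BGLU19* was lower (an exact count ratio of WT to *tmt2-L-Suc* of 87.9, 95% interval 15.4 to 3510). The shares called in these lists, 5.88% and 8.7%, were near that of all genes and say nothing about the families. Of 21 aliphatic glucosinolate genes tested, none was a DEG, 20 had a negative log2FC, and the median was -0.90.

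Of 23 anthocyanin and flavonoid genes tested, 3 were higher (13.0% called, beside 5.27% of all genes tested). They were *TT4*, the chalcone synthase that starts the pathway, with a log2FC of 1.21 ± 0.35, *FLS1*, the flavonol synthase, with 1.46 ± 0.44, and *4CL3*, which activates coumarate, with 1.60 ± 0.45. *TT4* was at 99.7, 149 and 182 FPKM in *tmt2-L-Suc*, against 73.0, 46.2 and 53.2 FPKM in the WT. None of the 3 calls held without *tmt2-L-Suc* replicate 2 or 3, or without WT replicate 2 or 3. The list had medians of -1.01 in WT-Suc/WT and 1.68 in *tmt2-L-Suc*/WT-Suc. Of 19 genes of oil mobilization and the glyoxylate cycle, the pathway that turns stored oil into sugar, 2 were higher (10.5% called). *ICL*, the isocitrate lyase, was at 64.1, 33.3 and 105 FPKM in *tmt2-L-Suc*, against 33.6, 7.73 and 13.8 FPKM in the WT, where WT replicate 1 was just above mutant replicate 2 (log2FC 1.72 ± 0.48, adjusted p = 0.037; log2FC 2.56 without WT replicate 1), and *MLS*, the malate synthase, was at 7.78, 4.91 and 16.3 FPKM in *tmt2-L-Suc*, against 3.45, 2.19 and 2.62 FPKM in the WT (log2FC 1.68 ± 0.39, adjusted p = 0.0167). Both calls were lost without *tmt2-L-Suc* replicate 3, without WT replicate 2 and without WT replicate 3.

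Among the lower genes, *QQS*, an orphan gene known to affect starch content, was at 1.56, 0.34 and 0.42 FPKM in *tmt2-L-Suc*, against 32.9, 51.8 and 47.9 FPKM in the WT (log2FC -5.89 ± 0.44, adjusted p = 0.0000322). *MRD1*, named for its low level in a methionine-overproducing mutant, was at 0.05, 0.27 and 0.59 FPKM in *tmt2-L-Suc*, against 14.5, 22.2 and 23.8 FPKM in the WT (log2FC -5.98 ± 0.48, adjusted p = 0.0000533). AT4G35810, an oxygenase whose locus lies within 1 Mb of *TMT2*, was at 0.71, 0.72 and 0.70 FPKM in *tmt2-L-Suc*, against 4.83, 5.51 and 5.44 FPKM in the WT (log2FC -2.97 ± 0.21, adjusted p = 0.0000322). The mutant libraries of all 3 genes were far below the WT. The log2FC was -6.90 for *QQS* without *tmt2-L-Suc* replicate 1 and -6.84 for *MRD1* without *tmt2-L-Suc* replicate 3. They were also low in *tmt2-S*, at 0.39, 0.33 and 0.35 FPKM for *QQS*, 1.21, 0.72 and 0.50 FPKM for *MRD1* and 0.87, 0.94 and 0.82 FPKM for AT4G35810, while WT-Suc was at 49.4, 91.4 and 84.8, 19.6, 32.1 and 35.0 and 5.37, 6.79 and 5.06 FPKM.

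*ALF5*, a MATE efflux protein that protects roots from toxins, was at 0.16, 0.05 and 0.05 FPKM in *tmt2-L-Suc*, against 3.82, 3.46 and 4.54 FPKM in the WT (log2FC -5.51 ± 0.36, adjusted p = 0.0000322), with 3.45, 6.27 and 4.41 FPKM in *tmt2-S*. AT3G05727, a small pollen coat-like protein, was at 1.73, 0.38 and 1.31 FPKM in *tmt2-L-Suc*, against 55.6, 55.1 and 75.3 FPKM in the WT (log2FC -5.82 ± 0.51, adjusted p = 0.000107), with 20.1, 58.2 and 57.4 FPKM in *tmt2-S*. Both had mutant values near 0 on sucrose beside unfed mutant values within a few-fold of the WT. *CDEF1*, a lipase that can degrade cutin, was at 0.27, 0.15 and 0 FPKM in *tmt2-L-Suc*, against 14.3, 13.8 and 20.2 FPKM in the WT (log2FC -6.91 ± 0.50, adjusted p = 0.0000322), and its steps were both negative, at -1.72 in WT-Suc/WT and -5.19 in *tmt2-L-Suc*/WT-Suc. The cupin AT5G38930 was at 1.05, 0.59 and 0.59 FPKM in *tmt2-L-Suc*, against 9.88, 8.75 and 10.3 FPKM in the WT (log2FC -3.78 ± 0.29, adjusted p = 0.0000453). *FUM2*, a cytosolic fumarase that makes fumarate as a carbon store in leaves, was at 2.80, 3.65 and 2.61 FPKM in *tmt2-L-Suc*, against 28.9, 28.3 and 20.6 FPKM in the WT (log2FC -3.16 ± 0.30, adjusted p = 0.000142). For each of these genes the groups were apart, which the naming rule required of all but *FUM2*. The call of each held with each library left out. The log2FC of *ALF5* was -6.18 without *tmt2-L-Suc* replicate 1, and that of *CDEF1* was -7.71 without *tmt2-L-Suc* replicate 1 and -6.32 without replicate 3. AT1G23130, a polyketide cyclase-like protein, fell by 2.04 ± 0.19 and *NEET*, an iron-sulfur protein, by 1.86 ± 0.19 on the log2 scale.

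Some genes that sugar shortage induces were lower in the fed mutant than in the unfed WT. Of 22 tested, 7 were lower and none higher, all 22 had a negative log2FC, and the median was -1.20. The list's median was 0.12 in WT-Suc/WT, -1.31 in *tmt2-L-Suc*/WT-Suc and 1.80 in *tmt2-S*/WT. Its lower DEG with the largest change, *DIN2*, differed from these medians, with steps of -5.84 ± 1.44 in WT-Suc/WT and -0.08 ± 2.87 in *tmt2-L-Suc*/WT-Suc. The word TATCCA, part of sugar-response elements of amylase genes described in rice, was in the 250 bases before the start, on either strand, for 14.4% of all genes tested and for 6 of the 22 list members. The windows of *ASN1* and *TPS11*, lower DEGs that hold it, are shown with the word in capitals, at chr3:17441432-17441681 (minus strand) and chr2:8108648-8108897 (plus strand).
ASN1: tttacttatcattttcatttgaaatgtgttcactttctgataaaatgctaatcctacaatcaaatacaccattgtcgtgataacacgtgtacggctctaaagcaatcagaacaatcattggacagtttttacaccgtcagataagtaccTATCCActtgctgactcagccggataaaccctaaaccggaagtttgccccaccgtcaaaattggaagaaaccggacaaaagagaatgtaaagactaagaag
TPS11: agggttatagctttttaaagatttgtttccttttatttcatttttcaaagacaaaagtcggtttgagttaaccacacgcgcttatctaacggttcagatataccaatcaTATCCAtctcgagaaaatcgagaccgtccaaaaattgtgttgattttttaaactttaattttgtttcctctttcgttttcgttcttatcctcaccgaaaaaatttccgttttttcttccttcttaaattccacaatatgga

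*bZIP1*, a transcription factor of the low-energy response, was at 24.2, 43.8 and 13.6 FPKM in *tmt2-L-Suc*, against 101, 88.1 and 94.8 FPKM in the WT (log2FC -1.87 ± 0.33, adjusted p = 0.00439). *ASN1*, the dark-induced asparagine synthetase, was at 48.2, 47.1 and 14.1 FPKM in *tmt2-L-Suc*, against 113, 143 and 312 FPKM in the WT (log2FC -2.42 ± 0.59, adjusted p = 0.0212). *BCAT-2*, which starts the breakdown of branched-chain amino acids, was at 2.77, 1.28 and 0.44 FPKM in *tmt2-L-Suc*, against 8.63, 5.14 and 15.3 FPKM in the WT (log2FC -2.79 ± 0.69, adjusted p = 0.0213). All 3 genes had their lowest mutant value in replicate 3, and the groups did not overlap. *TPS8* and *TPS11*, trehalose phosphate synthase-like proteins, were at 12.02, 36.1 and 12.01 FPKM and 12.2, 34.8 and 10.9 FPKM in *tmt2-L-Suc*, against 71.2, 59.2 and 63.9 FPKM and 47.0, 52.5 and 66.5 FPKM in the WT. In both, replicate 2 was the mutant library nearest to the WT. *DIN2*, a dark-inducible glycosyl hydrolase, was at 0.08, 0 and 0.05 FPKM in *tmt2-L-Suc*, against 6.28, 0.25 and 1.23 FPKM in the WT, with WT replicate 1 far above the other WT libraries (log2FC -5.92 ± 1.43, adjusted p = 0.0196), and *MCCA*, a subunit that degrades leucine, was at 29.2, 25.8 and 18.9 FPKM in *tmt2-L-Suc*, against 32.4, 45.5 and 93.9 FPKM in the WT (log2FC -1.29 ± 0.39, adjusted p = 0.05). The count of lower genes was 1 without *tmt2-L-Suc* replicate 3, 4 without *tmt2-L-Suc* replicate 1 and 3 without WT replicate 3, and *bZIP1* kept its call in each. Without *tmt2-L-Suc* replicate 2 the log2FC was -2.48 for *bZIP1*, -2.6 for *TPS8* and -2.41 for *TPS11*. It was -3.51 for *BCAT-2* and -6.56 for *DIN2* without *tmt2-L-Suc* replicate 1, and -4.04 for *DIN2* without WT replicate 1.

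Auxin-responsive SAUR genes, which promote cell expansion, were lower in 11 of the 15 tested, with a median log2FC of -1.83. The list holds only loci that carry a *SAUR* symbol, and SAUR-like loci without one, such as AT5G18030, are not counted in it. *SAUR22* was at 1.5, 3.75 and 2.26 FPKM in *tmt2-L-Suc*, against 13.2, 24.8 and 31.6 FPKM in the WT (log2FC -3.28 ± 0.47, adjusted p = 0.00156). *SAUR19* was at 2.23, 2.99 and 2.96 FPKM in *tmt2-L-Suc*, against 9.86, 16.3 and 26.1 FPKM in the WT (log2FC -2.74 ± 0.39, adjusted p = 0.00155), and *SAUR68* was at 4.03, 5.59 and 6.27 FPKM in *tmt2-L-Suc*, against 11.4, 13.0 and 16.3 FPKM in the WT (log2FC -1.45 ± 0.27, adjusted p = 0.00597). In all 3 the highest mutant library lay below the lowest WT library. Many members sit in tandem runs and are near-identical, so reads can be shared among them. The median was 0.52 in WT-Suc/WT, -2.12 in *tmt2-L-Suc*/WT-Suc and -5.92 in *tmt2-S*/WT. The count was 7 without *tmt2-L-Suc* replicate 1.

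Of 19 genes of shade and light-directed growth tested, 7 were lower and none higher, with a median log2FC of -1.08. Shade or low red light activates PIF factors, which induce homeobox genes such as *HB-2* and the auxin-making enzyme YUC9. *HB-2* was at 14.7, 19.96 and 16.1 FPKM in *tmt2-L-Suc*, against 83.2, 168 and 217 FPKM in the WT (log2FC -3.29 ± 0.52, adjusted p = 0.00274). *HFR1*, which restrains the same response, was at 1.23, 3.73 and 1.83 FPKM in *tmt2-L-Suc*, against 14.2, 21.01 and 32.4 FPKM in the WT (log2FC -3.38 ± 0.56, adjusted p = 0.00333). *HB4* was at 1.95, 3.88 and 1.97 FPKM in *tmt2-L-Suc*, against 14.2, 26.5 and 39.6 FPKM in the WT (log2FC -3.43 ± 0.47, adjusted p = 0.0014). WT replicate 1 was the lowest WT library for each of them, and it was above every mutant library. *HAT2* fell by 1.84 ± 0.36 and *HAT3* by 1.87 ± 0.32 on the log2 scale. *YUC9* was at 0.69, 2.42 and 1.09 FPKM in *tmt2-L-Suc*, against 3.14, 5.26 and 11.51 FPKM in the WT (log2FC -2.29 ± 0.50, adjusted p = 0.0128), and *IAA29*, an auxin repressor induced in shade, was at 12.2, 9.17 and 6.07 FPKM in *tmt2-L-Suc*, against 13.6, 30.1 and 65.9 FPKM in the WT (log2FC -2.09 ± 0.53, adjusted p = 0.0252), each lost without *tmt2-L-Suc* replicate 1 or 3 or WT replicate 3. *PIL1*, a shade marker, was at 0.38, 0.49 and 1.07 FPKM in *tmt2-L-Suc*, against 0.42, 1.06 and 1.68 FPKM in the WT, which overlap (log2FC -0.73 ± 0.80). The log2FC of *HFR1* was -4.00 without *tmt2-L-Suc* replicate 2, that of *YUC9* was -3.01 without *tmt2-L-Suc* replicate 2 and -1.70 without WT replicate 3, and that of *IAA29* was -1.41 without WT replicate 3. The G-box CACGTG, a word that PIF factors can bind, was searched in the same windows as the other motifs. It was in 7.55% of all genes tested, in 2 of the 19 genes of the list and in none of its 7 DEGs, and a window without it says nothing about the factor.

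Of 19 flowering-time genes tested, 5 were lower and none higher, although the median was -0.23. *FLC*, a repressor of flowering, was at 5.49, 5.30 and 4.32 FPKM in *tmt2-L-Suc*, against 20.6, 15.3 and 17.2 FPKM in the WT (log2FC -1.92 ± 0.21, adjusted p = 0.000356). Its neighbour AT5G10150, annotated as UPSTREAM OF FLC, was at 16.1, 30.0 and 14.9 FPKM in *tmt2-L-Suc*, against 64.4, 44.4 and 64.3 FPKM in the WT (log2FC -1.62 ± 0.29, adjusted p = 0.00498). *MAF4*, a relative of FLC, was at 4.35, 3.69 and 5.55 FPKM in *tmt2-L-Suc*, against 14.2, 12.9 and 11.1 FPKM in the WT (log2FC -1.55 ± 0.21, adjusted p = 0.0014). *SPL3*, which promotes flowering, was at 0.67, 1.26 and 0.53 FPKM in *tmt2-L-Suc*, against 8.45, 6.38 and 13.1 FPKM in the WT (log2FC -3.57 ± 0.45, adjusted p = 0.000971), so repressors and a promoter fell together. The groups were apart in all 4 genes. *SVP*, another repressor, stood at -1.25 ± 0.23 and came under the fold threshold without *tmt2-L-Suc* replicate 1 (log2FC -1.08), *tmt2-L-Suc* replicate 3 (log2FC -1.14) or WT replicate 1 (log2FC -1.08).

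Of 14 copper homeostasis genes tested, 4 were lower and none higher, with a median of -0.38. Plants short of copper reduce their copper/zinc superoxide dismutases through miR398. *CSD1*, the cytosolic dismutase, was at 22.2, 16.5 and 20.9 FPKM in *tmt2-L-Suc*, against 80.6, 49.5 and 58.6 FPKM in the WT (log2FC -1.77 ± 0.22, adjusted p = 0.000962), and *CSD2*, the plastid dismutase, was at 29.7, 32.5 and 37.2 FPKM in *tmt2-L-Suc*, against 142, 70.1 and 91.0 FPKM in the WT (log2FC -1.71 ± 0.29, adjusted p = 0.00352). *CCS*, their copper chaperone, was at 22.5, 18.8 and 18.24 FPKM in *tmt2-L-Suc*, against 49.4, 37.3 and 46.8 FPKM in the WT (log2FC -1.27 ± 0.21, adjusted p = 0.00364). *UCC2*, a uclacyanin, was at 4.22, 2.89 and 2.21 FPKM in *tmt2-L-Suc*, against 8.27, 17.0 and 30.3 FPKM in the WT (log2FC -2.66 ± 0.54, adjusted p = 0.0086). None of the 4 had overlapping groups, and *CCS* alone came under the fold threshold, without *tmt2-L-Suc* replicate 3 (log2FC -1.19) or WT replicate 1 (log2FC -1.15).

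A cluster on chromosome 4 held 6 lower genes among 8 tested lipid-transfer-like genes, with a median log2FC of -4.29. Of these, 5 formed an unbroken run of DEGs at chr4:11844506-11857362. AT4G22505 was at 1.34, 0.88 and 0.71 FPKM in *tmt2-L-Suc*, against 55.5, 44.1 and 72.7 FPKM in the WT (log2FC -5.98 ± 0.59, adjusted p = 0.000195). AT4G22485 was at 1.71, 1.93 and 1.5 FPKM in *tmt2-L-Suc*, against 52.6, 38.5 and 101 FPKM in the WT (log2FC -5.31 ± 0.84, adjusted p = 0.00268), and AT4G22520 was at 2.00, 1.52 and 1.44 FPKM in *tmt2-L-Suc*, against 60.5, 41.0 and 63.6 FPKM in the WT (log2FC -5.09 ± 0.52, adjusted p = 0.000262). Mutant values were below 4 FPKM for 5 of the 6 genes, while AT4G22490 was at 12.3, 11.8 and 10.3 FPKM against 74.4, 61.4 and 92.3 FPKM in the WT. All 6 calls held with each library left out. Tandem copies can share reads and some loci overlap others on the opposite strand, and strand use is not given in the sources used here, so the share of reads of each copy is uncertain.

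Of 48 NAC factors tested, 6 were lower, 1 was higher and 41 were not called, with a median of -0.04. The share called was 14.6%, beside 5.27% of all genes tested. In the ERF and DREB list, 1 of 34 was higher and none lower (2.94%), which says nothing about that family. *NAP*, which drives leaf senescence, was at 2.52, 4.45 and 2.73 FPKM in *tmt2-L-Suc*, against 15.04, 9.46 and 6.53 FPKM in the WT (log2FC -1.78 ± 0.36, adjusted p = 0.00862). *RD26*, a drought- and ABA-responsive factor, was at 6.27, 12.1 and 11.1 FPKM in *tmt2-L-Suc*, against 29.8, 27.7 and 20.9 FPKM in the WT (log2FC -1.61 ± 0.33, adjusted p = 0.00865). *NAC1*, which acts in lateral root formation, was at 1.53, 0.54 and 0.63 FPKM in *tmt2-L-Suc*, against 3.43, 2.68 and 3.89 FPKM in the WT (log2FC -2.03 ± 0.30, adjusted p = 0.00186). In all 3 the groups were apart, and *tmt2-S* was above the WT, at 31.6, 53.3 and 27.6, 82.2, 104 and 50.4 and 7.74, 8.63 and 8.98 FPKM. *BT1* and *BT2*, BTB and TAZ domain proteins, were at 64.8, 84.4 and 32.9 FPKM and 89.0, 139 and 46.2 FPKM in *tmt2-L-Suc*, against 187, 252 and 333 FPKM and 261, 278 and 339 FPKM in the WT, and fell by 2.19 ± 0.33 and 1.75 ± 0.32 on the log2 scale. *WRKY45* was at 0.39, 0.26 and 0.48 FPKM in *tmt2-L-Suc*, against 2.15, 0.99 and 1.63 FPKM in the WT (log2FC -2.18 ± 0.32, adjusted p = 0.00194), with 87.9, 75.8 and 86.5 FPKM in *tmt2-S*. *UMAMIT33*, of an amino acid exporter family, was at 0.81, 0.67 and 0.16 FPKM in *tmt2-L-Suc*, against 4.70, 3.18 and 9.31 FPKM in the WT (log2FC -3.46 ± 0.49, adjusted p = 0.00156), with 46.3, 66.1 and 71.7 FPKM in *tmt2-S*. Of 17 clock genes, 3 were lower, and 1 was without *tmt2-L-Suc* replicate 1, *tmt2-L-Suc* replicate 3 or WT replicate 1. Of these, *RVE1*, a morning factor that raises auxin, was at 13.2, 29.6 and 18.18 FPKM in *tmt2-L-Suc*, against 74.2, 50.7 and 47.2 FPKM in the WT (log2FC -1.59 ± 0.29, adjusted p = 0.00507) with steps of -1.67 in WT-Suc/WT and 0.07 in *tmt2-L-Suc*/WT-Suc.

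Some genes of the root and of the seed were lower: 2 of 5 root markers tested, *IRT1* and *RCI3*, and 2 of 9 seed genes tested. *NRT1.5*, which loads nitrate into the xylem, was at 0.29, 0.34 and 0.41 FPKM in *tmt2-L-Suc*, against 7.92, 10.6 and 22.3 FPKM in the WT (log2FC -5.36 ± 0.74, adjusted p = 0.00148). This gene is not a root marker here but comes from the nitrate and ammonium list. Of that list 1 of 18 tested was lower (5.56%), beside 3.58% lower of all genes tested. *RCI3*, a peroxidase on the root marker list, was at 0.68, 1.19 and 0.96 FPKM in *tmt2-L-Suc*, against 4.03, 5.97 and 9.52 FPKM in the WT (log2FC -2.86 ± 0.57, adjusted p = 0.00816). The mutant was below every WT library for both. The summed level of 9 root markers was 1.34 to 6.67 FPKM in *tmt2-L-Suc* and 5.31 to 14.8 FPKM in the WT, without *PYK10*, which alone was at 924, 906 and 954 FPKM in *tmt2-L-Suc*, against 712, 644 and 758 FPKM in the WT. Among the markers, *IRT1* and *MRN1* were at 0 in all *tmt2-L-Suc* libraries. With any of the 6 libraries left out, *IRT1* lost its call and 1 root marker was lower. The part of root RNA in these results was not tested. On the Casparian strip and suberin list, 2 of 12 tested were lower, *CASP5* and *MYB36*. The summed level of all 16 genes of that list was not lower in the mutant. It was 69.0, 36.4 and 46.1 FPKM in *tmt2-L-Suc*, against 18.8, 38.1 and 45.3 FPKM in the WT, which overlap. *MYB36* lost its call with any of the 6 libraries left out and *CASP5* with any of them except WT replicate 1.

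The count of lower seed genes was 1 without *tmt2-L-Suc* replicate 1. Of the genes that follow, *TIP3;1* was named from the aquaporin list, *OSM34* by size of change and *LEA18* from the late embryogenesis list. *PER1*, a seed peroxiredoxin, was at 0.12, 0 and 0.06 FPKM in *tmt2-L-Suc*, against 8.28, 1.3 and 3.44 FPKM in the WT, a ratio of WT to *tmt2-L-Suc* counts of 72.0 (95% exact interval 24.3 to 352.0, counting error only). *TIP3;1*, an aquaporin of seed storage vacuoles, had 0 FPKM in all *tmt2-L-Suc* libraries and 3.23, 0.48 and 1.09 FPKM in the WT, at least 9.89-fold lower in the mutant, and at least 4.83-fold lower without WT replicate 1. *OSM34*, an osmotin, was at 0.39, 0 and 0 FPKM in *tmt2-L-Suc*, against 21.7, 2.18 and 3.48 FPKM in the WT (log2FC -6.20 ± 1.21, adjusted p = 0.00723), and the late embryogenesis protein *LEA18* was at 2.22, 0.52 and 3.08 FPKM in *tmt2-L-Suc*, against 56.9, 9.31 and 16.8 FPKM in the WT (log2FC -3.93 ± 0.69, adjusted p = 0.00429). *RAB18*, an ABA-induced dehydrin, was at 1.73, 1.18 and 2.82 FPKM in *tmt2-L-Suc*, against 63.3, 6.71 and 9.57 FPKM in the WT (log2FC -3.94 ± 0.86, adjusted p = 0.0125), and its call was lost without *tmt2-L-Suc* replicate 1. WT replicate 1 was the highest library in each of these 5 genes. The summed level of 16 seed genes was 35.9 to 53.2 FPKM in *tmt2-L-Suc* and 40.4 to 116 FPKM in the WT. These ranges overlapped with all libraries in, and WT replicate 1 had 116 FPKM. Without WT replicate 1 the log2FC was -4.45 for *OSM34*, -2.81 for *LEA18* and -2.17 for *RAB18*, and the summed seed levels still overlapped. Without *tmt2-L-Suc* replicate 1 the other mutant libraries had 0 FPKM of *OSM34*. The part of seed RNA in WT replicate 1 was not tested.

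**Figure D3:**
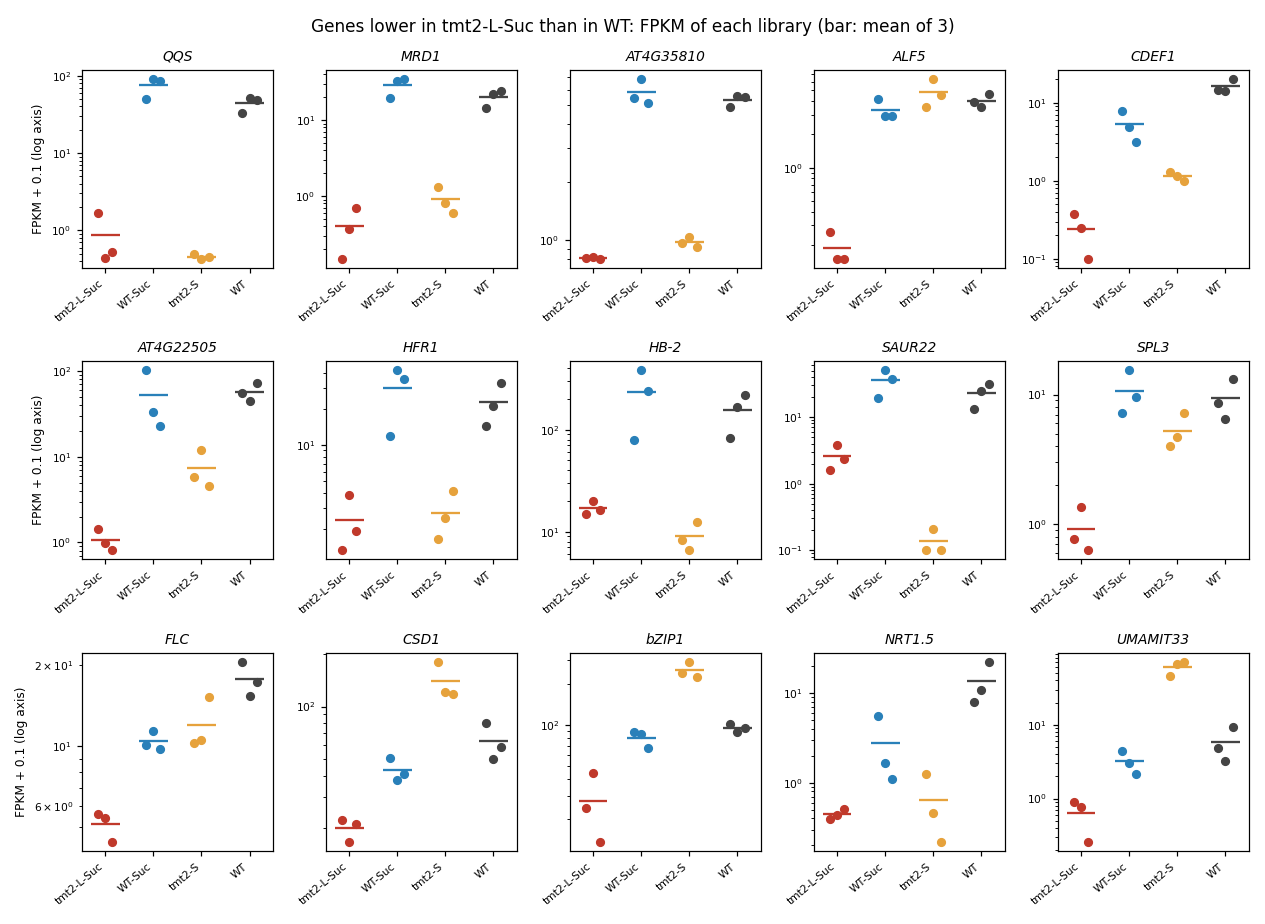
FPKM + 0.1 (log axis) of 15 genes that were lower in *tmt2-L-Suc* than in the WT, drawn in the same way, with points for the 3 libraries of each group and a bar for their mean. The *tmt2-L-Suc* libraries lie below all WT libraries in every panel; *tmt2-S* is also below the WT for *QQS*, *MRD1* and AT4G35810 and above it for *CSD1*, *bZIP1* and *UMAMIT33*.

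Lists for cell division, expansins, leaf markers and photosynthesis held none or 1 DEG, beside 5.27% of all genes tested. In lists of this size such counts lie near that share and say nothing about growth or photosynthesis. None of 22 genes of DNA replication and the cell cycle was a DEG (median log2FC 0.22), and none of 23 expansins was (median -0.09). None of 11 markers of true leaves and meristems tested was a DEG (median -0.36, with 8 negative), with a summed level over 16 markers of 55.2 to 65.5 FPKM in *tmt2-L-Suc* and 65.0 to 72.5 FPKM in the WT. Of 23 light-harvesting and Rubisco genes, 1 was higher. It was *LHCB4.3*, a minor antenna protein, at 60.03, 72.9 and 70.7 FPKM in *tmt2-L-Suc*, against 36.4, 21 and 17.1 FPKM in the WT (log2FC 1.34 ± 0.36, adjusted p = 0.0323), with a call that was lost without any one of 5 of the libraries. The median of that list was -0.29, 17 of its 23 values were negative, and its summed level was lower in every *tmt2-L-Suc* library than in every WT library. A median near 0 does not show that the genes are at the same level.

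The steps differed between the lists. Over all higher DEGs the median log2FC was 0.11 in WT-Suc/WT and 1.88 in *tmt2-L-Suc*/WT-Suc, and over all lower DEGs it was -0.61 and -1.45. The stomatal list had medians of 0.05 and 0.57, the xylem list -0.24 and 1.18, and the iron list -1.31 and 2.02 in the same steps. Jasmonate genes, of which 1 of 26 was a DEG, had -0.95 and 1.41, and their median was 0.17 in *tmt2-L-Suc*/WT. Unlike the values of a single gene, medians of the steps do not add up to the median of the comparison. The list of early touch and wound genes had -1.31 and 1.4, and 1 of its 22 genes was a DEG at a median of 0.17. The shares called in these lists, 3.85% and 4.55%, were near the 5.27% of all genes tested. All these values rest on shared libraries and were not tested as lists.

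**Figure D4:**
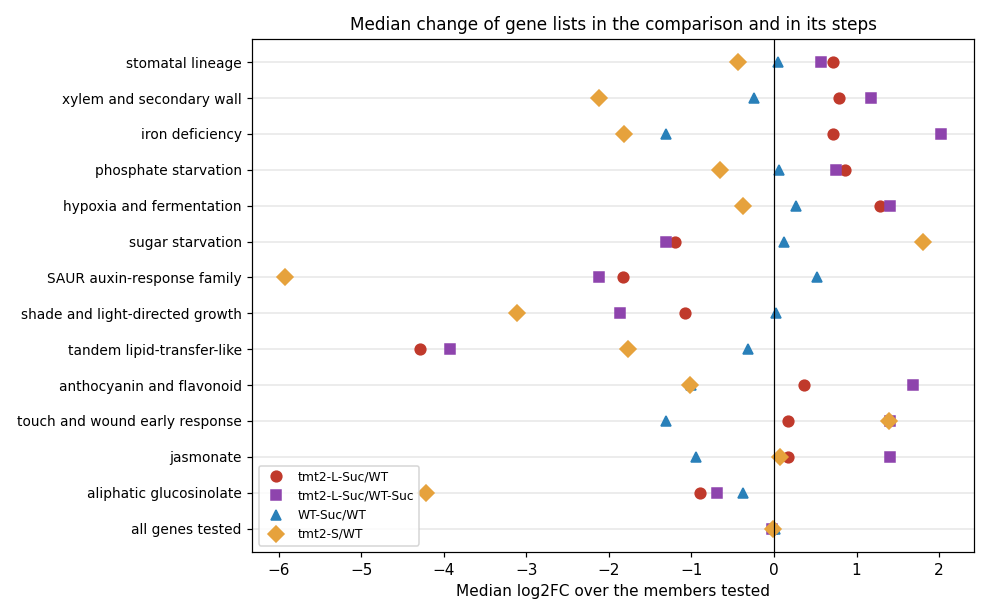
Median log2FC over the tested members of 13 gene lists and of all genes, for *tmt2-L-Suc*/WT (circles), its steps *tmt2-L-Suc*/WT-Suc (squares) and WT-Suc/WT (triangles), and *tmt2-S*/WT (diamonds). The jasmonate, touch and flavonoid lists lie near 0 in *tmt2-L-Suc*/WT with steps on opposite sides of 0, whereas the sugar starvation list is at -1.20 with *tmt2-S*/WT at 1.80.

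DEGs were spread over the genome, at between 4.91 and 6.65% of the genes tested on each chromosome. Within 1 Mb of *TMT2*, 19 of 420 genes tested were DEGs (4.52%). Of 14 runs of at least 3 neighbouring DEGs with the same direction, 1 was higher, that of the *GSTF* genes, and 13 were lower, including the SAUR and lipid-transfer-like runs.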

How the data were processed

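Shoot RNA of Arabidopsis seedlings was sequenced in 4 groups of 3 libraries, assigned by the genotype, treatment and replicate number in the labels. The authors filtered the reads, aligned them to TAIR10.1 with Bowtie2 and quantified genes with RSEM; versions are not given in the sources used here. The deposited expected count is the number of reads that the authors' RSEM run assigned to a gene, without normalization. The deposited FPKM values were normalized by the authors for transcript length and library depth and are used here only to show levels. The 12 TPM columns and 12 columns of averages were not used.

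Expected counts were rounded and fitted with edgeR 4.0.16 (R 4.3.3): filterByExpr kept 18506 of 22953 genes, TMM scaled the libraries, and a quasi-likelihood model had 1 mean per group over the 12 libraries. Adjusted p is Benjamini-Hochberg over the genes tested. A DEG, by the study's criteria, has |log2FC| of at least 1.2 and an adjusted p of at most 0.05. The standard error is |log2FC| divided by the square root of F, and the biological coefficient of variation was 0.209. All p-values are two-sided. Pairs of replicates differed by more than sampling noise (chi-square per degree of freedom 16.2 to 40.7). Where all libraries of a group had 0 counts, a fold is given as a bound against 3 counts per library, and where they had 1 to 3 in all, as a count ratio with an exact binomial interval. Intervals and floors cover counting error only.

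The groups, gene lists and genes were chosen with earlier results of these data known. The lists for the stomatal lineage, xylem, iron, copper, shade, flowering, Casparian strip and the lipid-transfer-like cluster were chosen after their values were seen, so their counts are descriptions. Lists of families were built from gene symbols. Genes are named by this rule: among DEGs with groups apart, in each direction the 8 smallest p-values and the 5 largest changes at a mean of at least 5 FPKM in the higher group; the top DEG of each list by change; the tonoplast transporters; and members of lists with at least 4 DEGs. *FUM2*, *NEET*, *C/VIF2*, *GSTF6*, *BT1*, *BT2*, *RAB18* and other genes named outside it were chosen after their values were seen. Promoter windows were read from the TAIR10.1 genome with RefSeq starts; all 22953 genes matched by locus, and 1 window is not reported here. Alternatives were RLE scaling, DESeq2 1.42.0, no filter, a filter of 10 counts in every library, a fit of the 6 libraries, a replicate block, glmTreat and leaving out each library. Python 3.11.15, pandas 2.3.3 and scipy 1.17.1 did the rest.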

Additional observations from a re-analysis of the deposited data

How the results depend on the processing

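The 976 DEGs (314 higher, 662 lower in *tmt2-L-Suc*) became 978 with RLE scaling, 1179 with DESeq2, 1073 without the filter and 1033 in a fit of the 6 libraries alone. A minimum of 10 counts in every library, which leaves fewer genes, gave 518 (158 higher, 360 lower), and glmTreat, which tests against the fold itself, gave 115 (29 higher, 86 lower). Leaving out each library gave 527 to 1104 DEGs, 183 to 347 higher and 344 to 757 lower. Deviations from the group mean of samples with the same replicate number had correlations of -0.325, -0.159 and -0.206. With so few libraries per group, these values cannot decide whether the numbers pair the samples. The replicate block gave 877 DEGs, of which 272 higher and 579 lower ones were also called without it. Of the values of single named genes under all alternatives, 823 kept direction and call, 141 kept only the direction and 9 changed sign. The changes of sign were in transporters that were not DEGs: with a library left out, log2FC ran between -0.08 and 0.18 for *TMT1*, -0.04 and 0.32 for AT5G17010, -0.01 and 0.35 for *SUT4* and -0.28 and 0.37 for *ESL1*, which was 0.01 under the replicate block. The causes were not tested. List counts moved by over 1.5 times in 126 recalculations and by less in 277. Under glmTreat the higher counts were 0 for the stomatal list, 1 for phosphate, 1 for hypoxia, 2 for xylem and 3 for iron. The lower counts were 0 for sugar starvation, 0 for copper, 1 for flowering, 2 for SAUR, 3 for shade and 5 for the lipid-transfer-like cluster. With 10 counts in every library, the SAUR and phosphate counts were 0, the stomatal count 2 and the copper count 4.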
